A study of Mus musculus with 12 samples.

Results

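Mast cell transcripts of inguinal white adipose tissue (iWAT) were examined through 8 genes, chosen by symbol from the 54134 genes that the raw count table lists: Cpa3, Mcpt4, Cma1, Tpsb2, Kit, Fcer1a, Ms4a2 and Hdc. Each symbol had 1 gene identifier. The tissue came from 12 male C57BL/6J mice, 6 AAV-GFP (GFP mice) and 6 AAV-Notum (Notum mice), which received at 8 weeks of age an adeno-associated virus coding for green fluorescent protein or for mouse Notum. The TBG promoter restricts both transgenes to the liver, so that the fat was not the tissue targeted. All 12 mice ate chow for the 4 weeks after injection, were fasted for 4 h and gave 1 library each. NOTUM is a secreted inhibitor of Wnt signaling, and the comparison asks how the fat differs when the liver overexpresses it.

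Mast cells are long-lived immune cells that settle in connective tissue, adipose tissue included, usually near vessels. They need stem cell factor (gene Kitl), which binds the receptor Kit on their surface. They carry the high affinity receptor for IgE, of which Fcer1a codes for the subunit that binds IgE and Ms4a2 for the subunit that amplifies the signal. Their granules hold histamine, made by histidine decarboxylase (Hdc), and proteases: carboxypeptidase A3 (Cpa3), the chymases Mcpt4 and Cma1 and the tryptase Tpsb2.

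Total counts per mouse ran from 14711113 to 21618860. The RNA integrity number was 5.7 (GFP-2011) to 7.6 in GFP and 6.9 to 7.4 in Notum mice, and the RNA of mouse GFP-2012 was isolated 22 days after collection, that of the other mice 2 days after it. Adipocyte markers summed to 31057 to 72069 CPM (counts relative to a library size normalized by TMM). Notum itself had 0.390 ± 0.399 CPM (SD, n = 6) in GFP iWAT and 9.75 ± 14.1 CPM (SD, n = 6) in Notum iWAT, where 2 of 6 mice lay above every GFP mouse. Mice GFP-2011 and GFP-2014 stood apart. Their 15 lymphoid markers summed to 25.8 and 14.9 CPM, while the other 10 mice had 343.6 to 2507 CPM. Results that rest on them are given with and without them. Notum-2042 had 3535 CPM of skeletal muscle markers, against 7.07 to 749.9 CPM in the other 11 mice, and the highest adipocyte sum. Of 8 hepatocyte markers, 7 had a lower fold change in Notum mice (2 at an unadjusted p under 0.05, median -2.74, summed 2083 to 8112 CPM in GFP and 1574 to 7014 CPM in Notum mice). Of all genes tested between the groups, 9.54% were lower at that threshold.

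Promoter sequences are shown for 3 granule proteases whose levels moved together between mice and, for contrast, for Hdc, for which no such relation was detected. RefSeq (GRCm38.p6) gave a promoter entry for 7 of the 8 genes (not Tpsb2), and the 120 bases before the RefSeq start were read, 5′ to 3′ on the gene's strand, moved 3 bases further upstream for Mcpt4 and 71 for Kit so that no annotated exon was touched. The Hdc window lies inside the gene as GENCODE draws it, in an intron, because RefSeq places the start further downstream. Capitals mark a GATA motif, spelled AGATAA, with G as its last letter AGATAG, with T as its first letter TGATAA, or with both changes TGATAG. Both strands were searched, so that CTATCT marks a motif on the other strand. Capitals also mark the TATA motif, spelled TATAAA. All 4 genes lie on the minus strand.
Cpa3 (chr3:20242182-20242301): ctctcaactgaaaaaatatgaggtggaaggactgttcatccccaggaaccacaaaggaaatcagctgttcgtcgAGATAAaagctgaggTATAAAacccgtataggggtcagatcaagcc
Mcpt4 (chr14:56062314-56062433): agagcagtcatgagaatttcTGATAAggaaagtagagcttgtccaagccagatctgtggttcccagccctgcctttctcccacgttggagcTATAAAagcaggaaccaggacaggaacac
Cma1 (chr14:55944676-55944795): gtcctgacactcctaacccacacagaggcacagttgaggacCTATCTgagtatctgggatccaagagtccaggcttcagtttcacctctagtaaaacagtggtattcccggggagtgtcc
Hdc (chr2:126618679-126618798): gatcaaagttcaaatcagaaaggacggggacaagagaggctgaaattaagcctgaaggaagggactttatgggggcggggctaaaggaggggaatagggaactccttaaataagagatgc
At least 1 GATA motif stood in 5 of the 7 windows (Cpa3, Mcpt4, Cma1, Fcer1a and Ms4a2), against 12.8% of all 32851 RefSeq promoters cut to the same length. The TATA motif stood in 2 of the 7 (Cpa3 and Mcpt4), against 6.34% of all. The windows of Kit and Hdc held neither set of letters. A match describes the letters and is not a measured binding site.

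The level of the 8 genes can be compared only per length of transcript. Per kilobase of exon, Mcpt4 was highest with 10.1 ± 3.75 CPM per kb (SD, n = 12), followed by Tpsb2 with 5.30 ± 1.81, Cma1 with 4.88 ± 1.89 and Cpa3 with 3.05 ± 1.52 CPM per kb. Kit had 1.75 ± 0.547, Fcer1a 0.414 ± 0.283, Hdc 0.379 ± 0.0996 and Ms4a2 0.0901 ± 0.0456 CPM per kb (SD, n = 12). The granule proteases thus gave the highest levels of the 8 and the subunits of the IgE receptor were among the lowest. Mcpt4 was above Tpsb2, Cma1 above Cpa3, Kit above Fcer1a and Hdc above Ms4a2 in 12 of 12 mice, and Cpa3 was above Kit in 10 of 12. Tpsb2 exceeded Cma1 in 8 of 12 mice and Fcer1a exceeded Hdc in 5 of 12, so neither of these neighbours can be ordered beyond the spread between mice.

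Of the 8 genes, 6 passed the filter on low counts and were among the 15585 genes tested with edgeR's quasi-likelihood test. Fcer1a (0 to 16 reads per mouse) and Ms4a2 (0 to 10 reads) did not pass. No gene of the 6 had an adjusted p under 0.05, against 0.0513% of all tested genes (8 genes). At an unadjusted p under 0.05, 1 of the 6, Kit, was higher in Notum mice, against 4.64% of all tested genes, and 0 were lower, against 9.54%. DESeq2 gave an adjusted p to the same 6 genes, with 0 under 0.05, against 2.65% of the 16431 genes that it adjusted. At an unadjusted p under 0.05 it had 1 of the 8 (Kit) higher, against 3.34% of 31900 genes, and 0 lower, against 5.87%. The median log2 fold change of the 6 was 0.22, and that of all tested genes 0.0077. The groups overlapped for each of the 8 genes; among all tested genes, 0.693% had every Notum mouse below every GFP mouse and 0.398% had every one above.

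**Figure D1:**
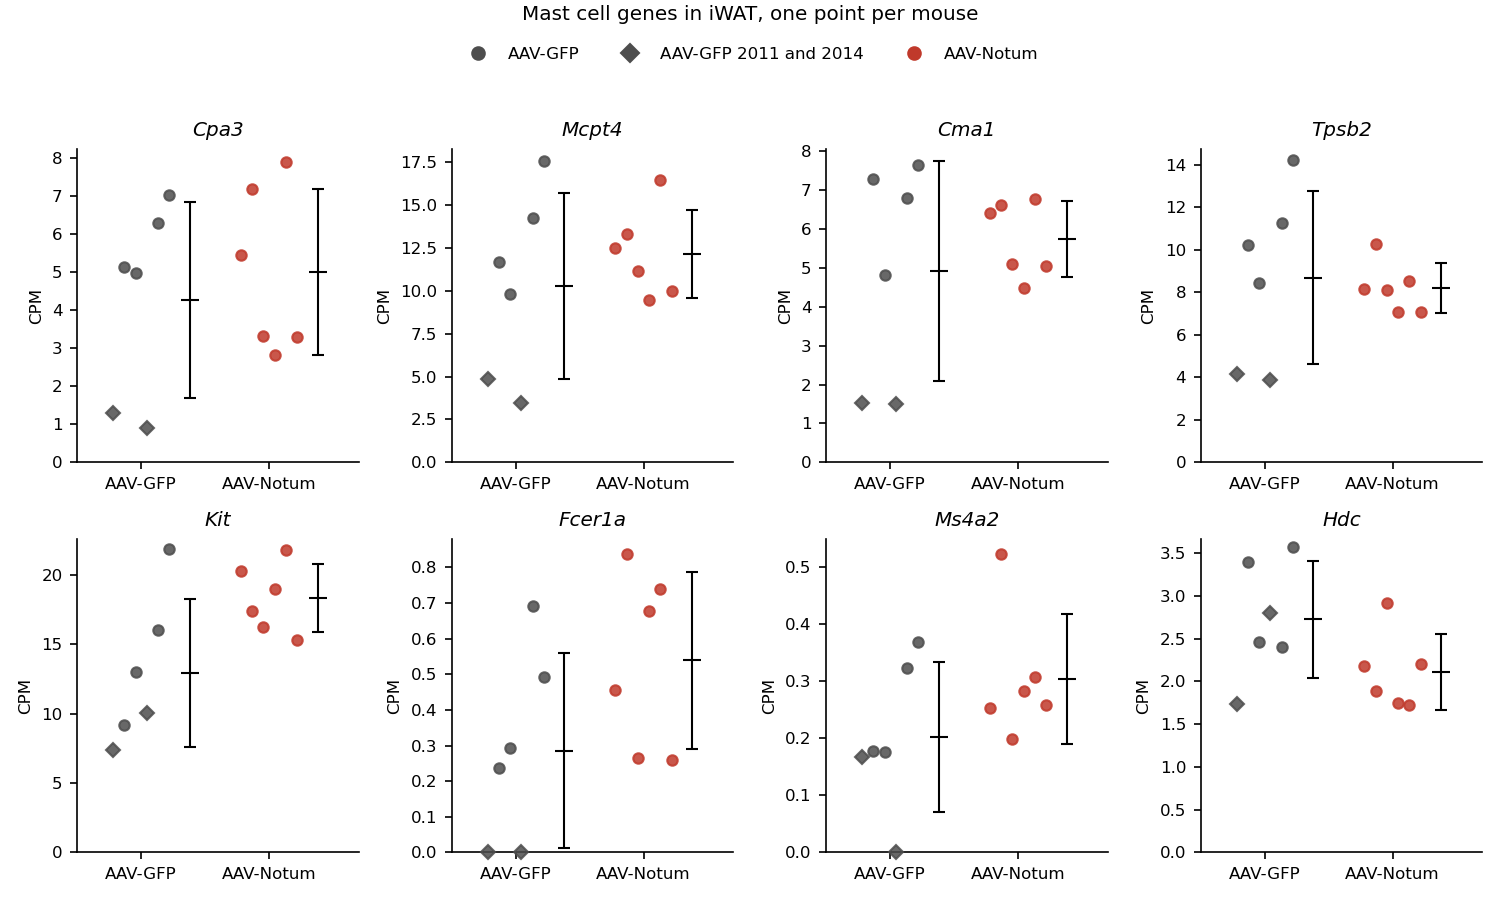
CPM of the 8 mast cell genes, 1 point per mouse, with the group mean and SD beside the points (n = 6 per group; each y axis starts at 0). Diamonds are GFP-2011 and GFP-2014, which lie below every other mouse for 6 genes (for Ms4a2 by library size only), but not for Kit and Hdc, and the groups overlap in every panel.

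Cpa3 (ENSMUSG00000001865, chr3:20215620-20242181, minus strand), the carboxypeptidase of mast cell granules, ran from 0.894 to 7.02 CPM (median 5.05) in GFP mice and from 2.83 to 7.88 CPM (median 4.38) in Notum mice. The 2 lowest values, 0.894 and 1.29 CPM, belonged to GFP-2014 and GFP-2011, and the Notum mice spanned the range of the other 4 GFP mice and beyond. Group means were 4.26 ± 2.57 and 4.99 ± 2.17 CPM (SD, n = 6 each). Its log2 fold change was 0.23 (standard error, SE, 0.48, edgeR adjusted p = 0.803, exact permutation p = 0.429), well within the spread between mice. Without GFP-2011 and GFP-2014 it was -0.23 (SE 0.31). Cpa3 overlaps the microRNA gene Mir7007. The 2 tables of the authors differ for Cpa3, and whether the overlap has a part in this was not tested. Estimated back from the normalized table, the Cpa3 reads were 1.24 times those of the raw table. By mouse this ran from 1.06 times in GFP-2021 (136 and 144.8 reads) to 2.38 times in GFP-2014 (15 and 35.7 reads), with 1.94 times in GFP-2011 (23 and 44.6 reads) and 1.82 times in Notum-2042. With the normalized table and limma, the log2 fold change of Cpa3 was 0.39 (SE 0.35, adjusted p = 0.535).

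Mcpt4 (ENSMUSG00000061068, chr14:56059629-56062313, minus strand) codes for a chymase, a protease of connective tissue mast cells. It ran from 3.46 to 17.6 CPM (median 10.8) in GFP mice and from 9.45 to 16.4 CPM (median 11.8) in Notum mice, so that every Notum mouse lay inside the GFP range. GFP-2014 and GFP-2011 were again lowest, with 3.46 and 4.88 CPM. In edgeR the log2 fold change was 0.24 (SE 0.34, edgeR adjusted p = 0.699, exact permutation p = 0.344). Without those 2 mice it was -0.13 (SE 0.20).

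Cma1 (ENSMUSG00000022225, chr14:55941451-55944675, minus strand) is a second chymase gene of the same cluster, 114953 bases from Mcpt4. It ran from 1.49 to 7.64 CPM (median 5.79) in GFP mice and from 4.47 to 6.77 CPM (median 5.75) in Notum mice. GFP-2014 and GFP-2011, at 1.49 and 1.51 CPM, were the only mice under 4.47 CPM. Between the groups the log2 fold change was 0.22 (SE 0.39, edgeR adjusted p = 0.763, exact permutation p = 0.407), and -0.21 (SE 0.18) without those 2 mice. Of all 50-base stretches of the annotated transcripts, 5.48% of those of Mcpt4 also occur in Cma2 or Mcpt9 and 5.38% of those of Cma1 in Gm48934, so a small part of their reads could be split. Cma2 itself had at most 3 reads in any mouse and Mcpt9 had 0 reads in all.

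Tpsb2 (ENSMUSG00000033825, chr17:25366305-25369098, plus strand), a tryptase that is stored on the heparin of mast cell granules, ran from 3.87 to 14.2 CPM (median 9.33) in GFP mice and from 7.06 to 10.3 CPM (median 8.13) in Notum mice. Only 1 of 6 Notum mice was above the GFP mean. The estimated log2 fold change was -0.08 (SE 0.29, edgeR adjusted p = 0.889), while the difference of mean log2 CPM was 0.06 (exact permutation p = 0.851): the sign depends on the scale. With GFP-2011 and GFP-2014 left out, at 4.15 and 3.87 CPM, the log2 fold change was -0.43 (SE 0.16, edgeR p = 0.0229 and adjusted p = 0.632, exact permutation p = 0.0429). These were the lowest mice of all for Tpsb2, so that leaving them out lowers the estimate by construction. The p-values without them are therefore no test of a group difference.

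The other 4 GFP mice had 11.0 ± 2.43 CPM (SD, n = 4) of Tpsb2 and the Notum mice 8.20 ± 1.18 CPM (SD, n = 6). Tpsab1, another tryptase gene, did not pass the filter over all 12 mice (1 to 21 reads per mouse). It had 0.859 ± 0.303 CPM (SD, n = 4) in those 4 GFP mice and 0.269 ± 0.118 CPM (SD, n = 6) in Notum mice. GFP-2011 and GFP-2014 had 0.0560 and 0.119 CPM, and the exact permutation p over all 12 mice was 0.271. The 4 GFP mice had 10 to 21 Tpsab1 reads and the Notum mice 2 to 9, so that in those 10 mice the gene would pass the filter through the GFP mice alone, and no test of them is given. Of the reads on the 2 tryptase genes together, Tpsb2 took 91.7% to 99.0%. No 50-base stretch of Tpsb2 occurs in another gene's annotated transcripts.

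Summed, the 4 granule proteases had 11.8 CPM in GFP-2011 and 9.71 CPM in GFP-2014, 28.0 to 46.4 CPM in the other 4 GFP mice and 23.8 to 39.6 CPM in the Notum mice. Both GFP-2011 and GFP-2014 lay below every other mouse for 6 of the 8 genes, Cpa3, Mcpt4, Cma1, Tpsb2, Fcer1a and Ms4a2. For Ms4a2 this rests on library size, as GFP-2011 had 3 reads like GFP-2012, GFP-2013 and Notum-2033, and in the authors' normalized table GFP-2011 was above GFP-2012 and GFP-2013. Among the tested genes this held for 4 of the 6, against 19.7% of all 15585. In bulk tissue, fewer mast cells and less RNA per mast cell cannot be told apart. The lymphoid markers were low in the same mice: their mean was -0.01 log2 CPM in GFP-2011 and -0.48 in GFP-2014, whereas the other 10 mice lay between 3.69 and 7.10. GFP-2012 had the third lowest lymphoid mean, 3.69, and 34.3 CPM of the proteases, more than 4 of the 6 Notum mice. With the lymphoid mean as a covariate, the log2 fold change between the groups was -0.43 (SE 0.32) for Cpa3, -0.25 (SE 0.21) for Mcpt4 and -0.33 (SE 0.26) for Cma1, and for Tpsb2 it was -0.54 (SE 0.17, edgeR unadjusted p = 0.00813, adjusted p = 0.425). In that fit Tpsb2 was the 1 gene of the 6 that was lower at an unadjusted p under 0.05, against 4.92% of all tested genes, and 0 were higher, against 4.19%. The lowest lymphoid means were those of GFP-2011 and GFP-2014, both GFP mice. The covariate fit is thus tied to the same mice and is not independent of leaving them out.

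**Figure D2:**
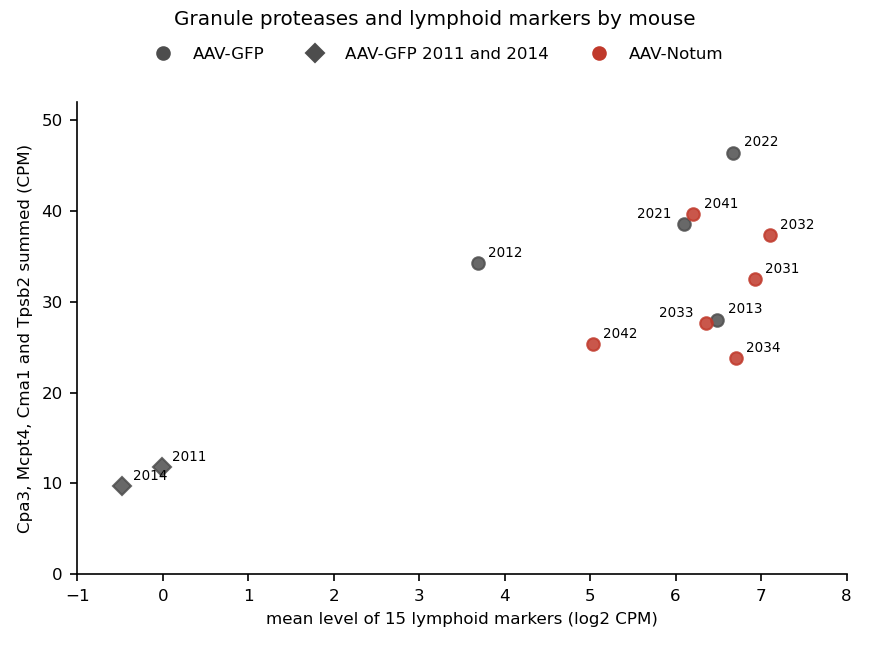
Summed CPM of Cpa3, Mcpt4, Cma1 and Tpsb2 against the mean log2 CPM of 15 lymphoid markers, 1 point per mouse, labelled with the mouse number. GFP-2014 and GFP-2011 lie at 9.71 and 11.8 CPM with lymphoid means of -0.48 and -0.01; all other mice have at least 23.8 CPM and a lymphoid mean of at least 3.69.

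Kit (ENSMUSG00000005672, chr5:75574916-75656722, plus strand), the receptor for stem cell factor, is not particular to mast cells, as melanocytes and progenitor cells also make it. It ran from 7.40 to 21.9 CPM (median 11.5) in GFP mice and from 15.3 to 21.8 CPM (median 18.2) in Notum mice. All 6 Notum mice were above the GFP mean, while GFP-2021, at 16.0 CPM, lay within their range and GFP-2022, at 21.9 CPM, just above it. Means were 12.9 ± 5.34 and 18.3 ± 2.48 CPM (SD, n = 6 each). On the log2 scale the fold change was 0.51 (SE 0.23, edgeR p = 0.0497 and adjusted p = 0.352, exact permutation p = 0.0455). The 3 mice with the lowest Kit level, GFP-2011, GFP-2012 and GFP-2014 (7.40, 9.17 and 10.01 CPM), were also those with the lowest lymphoid means. With the lymphoid mean as a covariate the log2 fold change was 0.19 (SE 0.17, edgeR adjusted p = 0.817), and without GFP-2011 and GFP-2014 it was 0.29 (SE 0.21, edgeR adjusted p = 0.858, exact permutation p = 0.176). Adjusted for RNA integrity, it was 0.35 (SE 0.17, edgeR unadjusted p = 0.0600). Leaving out GFP-2012, the mouse with the later RNA isolation, gave 0.43 (SE 0.24, edgeR unadjusted p = 0.101), and for 9 of the 12 mice, leaving out that mouse alone brought the exact permutation p above 0.05. Melanocyte markers summed to 3.63 to 8.18 CPM in GFP mice and to 2.78 to 8.74 CPM in Notum mice.

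The ligand of Kit had lower values in Notum mice. Kitl, which stromal and endothelial cells supply, had 54.0 ± 15.5 CPM in GFP and 32.5 ± 8.50 CPM in Notum mice (SD, n = 6 each). The GFP values ran from 36.3 to 81.0 CPM (median 52.8) and the Notum values from 21.8 to 45.9 CPM (median 32.0). In 5 of 6 Notum mice Kitl was below every GFP mouse. The sixth, Notum-2042, had 45.9 CPM and was above GFP-2021 and GFP-2022, and without it the log2 fold change was -0.86 (SE 0.21, edgeR adjusted p = 0.121). The log2 fold change of -0.73 (SE 0.21, unadjusted p = 0.00433) did not pass adjustment in edgeR (adjusted p = 0.170) but did in DESeq2 (adjusted p = 0.0374), which called 2.65% of the genes that it adjusted. Over all alternatives its adjusted p ran from 0.0374 to 0.563. The exact permutation p was 0.0108, and 0.0381 without GFP-2011 and GFP-2014, where the log2 fold change was -0.70 (SE 0.24). With the lymphoid mean as a covariate it was -0.53 (SE 0.22). Of 8 fibroblast and progenitor markers, 7 had a lower fold change (4 at an unadjusted p under 0.05, median -0.36, summed 3964 to 6684 CPM in GFP and 3314 to 4240 CPM in Notum mice). Of 8 endothelial markers, 7 had a lower fold change (2 at an unadjusted p under 0.05, median -0.34, summed 694.6 to 1150.5 CPM in GFP and 641.1 to 881.9 CPM in Notum mice). Of all 15585 tested genes, 7604 had a lower fold change and 9.54% were lower at an unadjusted p under 0.05. The part of these markers in the Kitl values was not tested.

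Fcer1a (ENSMUSG00000005339, chr1:173221284-173227214, minus strand) and Ms4a2 (ENSMUSG00000024680, chr19:11615523-11623719, minus strand), the IgE-binding and the signal-amplifying subunit of the IgE receptor, were near the limit of detection. Fcer1a had 0 reads in GFP-2011 and GFP-2014, which allows up to 0.168 and 0.179 CPM (3 reads, counting error only), and 0.238 to 0.692 CPM in the other GFP mice. Notum mice had 0.259 to 0.838 CPM (median 0.568), and 2 of them were above every GFP mouse. Means were 0.286 ± 0.273 and 0.539 ± 0.248 CPM (SD, n = 6 each, exact permutation p = 0.121). Ms4a2 had 0 to 0.369 CPM in GFP and 0.199 to 0.524 CPM in Notum mice, with means of 0.202 ± 0.131 and 0.304 ± 0.113 CPM (SD, n = 6 each, exact permutation p = 0.156). With 54 Ms4a2 reads and 89 Fcer1a reads in all 12 mice, neither difference passed the test over all mice. The difference of mean log2 CPM was 0.97 for Fcer1a and 0.50 for Ms4a2. Without GFP-2011 and GFP-2014 it was 0.25 for Fcer1a (exact permutation p = 0.529) and 0.16 for Ms4a2 (exact permutation p = 0.533). Leaving out GFP-2021 alone gave an exact permutation p of 0.0476 for Fcer1a, and leaving out GFP-2022 alone gave 0.0433 for Ms4a2. The shared gamma chain Fcer1g, which macrophages and natural killer cells also make, had 25.5 ± 7.43 and 29.4 ± 7.58 CPM (SD, n = 6 each, log2 fold change 0.20, SE 0.22, edgeR adjusted p = 0.623). Without GFP-2011 and GFP-2014 its log2 fold change was 0.08 (SE 0.20), and with the lymphoid mean as a covariate -0.03 (SE 0.23).

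Hdc (ENSMUSG00000027360, chr2:126593667-126619299, minus strand), the enzyme that makes histamine, had the lowest fold change of the 6 tested genes. It ran from 1.74 to 3.57 CPM (median 2.63) in GFP mice and from 1.72 to 2.92 CPM (median 2.04) in Notum mice. In 5 of 6 Notum mice it was below the GFP mean, and in 1 of 6 below every GFP mouse. Means were 2.73 ± 0.682 and 2.11 ± 0.445 CPM (SD, n = 6 each). This gave a log2 fold change of -0.37 (SE 0.20, edgeR p = 0.0913 and adjusted p = 0.406, exact permutation p = 0.0974). GFP-2014, among the lowest mice for the proteases, had 2.80 CPM of Hdc, above the GFP mean, while GFP-2011 had 1.74 CPM, the lowest GFP value. The 2 tables of the authors also differ for Hdc, with 503 reads in the raw and an estimated 561.2 behind the normalized table, most of all in GFP-2013 (42 and 68.5 reads). With the normalized table and limma, the log2 fold change of Hdc was -0.44 (SE 0.22, adjusted p = 0.316). Without GFP-2011 and GFP-2014 the log2 fold change was -0.48 (SE 0.21, edgeR p = 0.0393 and adjusted p = 0.670, exact permutation p = 0.0429). Adjusted for RNA integrity, it was -0.49 (SE 0.18, edgeR unadjusted p = 0.0175, adjusted p = 0.452), and in that fit Hdc was the 1 gene of the 6 that was lower at an unadjusted p under 0.05, against 5.95% of all tested genes, and 0 were higher, against 2.98%.

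**Figure D3:**
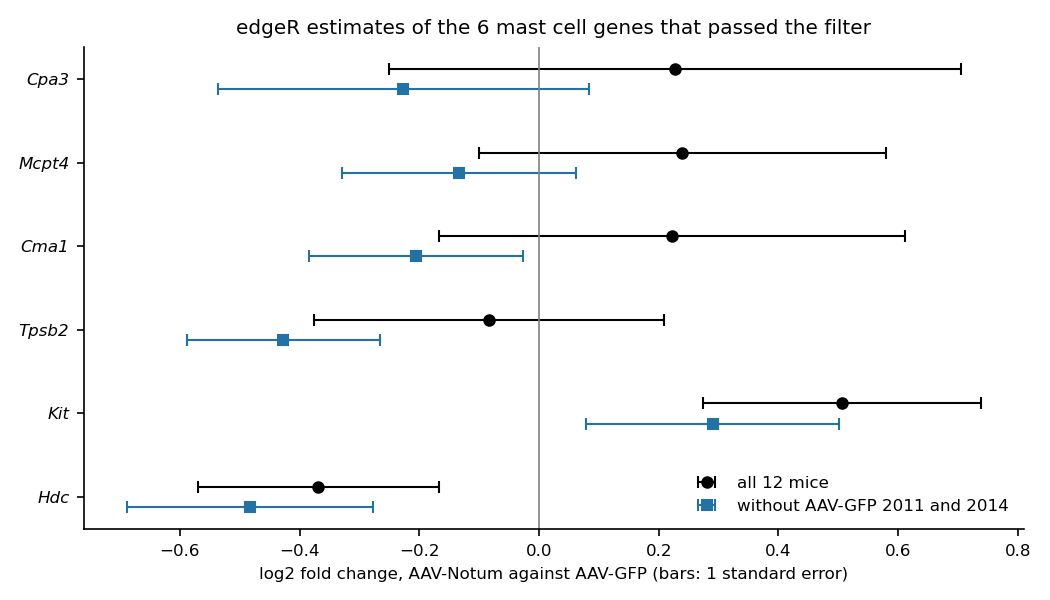
log2 fold change of Notum against GFP mice from edgeR, with 1 standard error, for the 6 genes that passed the filter, over all 12 mice (circles) and without GFP-2011 and GFP-2014 (squares). Cpa3, Mcpt4 and Cma1 lie at 0.22 to 0.24 with all mice and at -0.23 to -0.13 without the 2 mice, whereas Kit stays above 0 and Tpsb2 and Hdc below it.

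The direction of Cpa3, Mcpt4 and Cma1 thus turned when GFP-2011 and GFP-2014 were left out. These mice were the lowest of all for Cpa3, Mcpt4, Cma1 and Tpsb2, so that leaving them out lowers those estimates by construction. The turn is therefore no test of a group difference. Without GFP-2011 and GFP-2014, 7 of the 8 genes passed the filter, with a median log2 fold change of -0.21. At an unadjusted p under 0.05, 2 of the 7 (Tpsb2 and Hdc) were lower, against 4.95% of 15994 genes, and 0 were higher, against 2.16%. None of the 7 passed adjustment, as 0.00625% of the 15994 genes did (1 gene). With 4 against 6 mice, the smallest two-sided exact permutation p is 0.00476.

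The protease genes varied together from mouse to mouse. Over the 12 mice, log2 CPM of Mcpt4 and Cpa3 correlated with r = 0.97 (rho = 0.94, permutation p = 1e-05, the smallest that 100000 permutations can give, and 5e-05; adjusted over the 7 relations 7e-05 and 0.00035). GFP-2014 and GFP-2011 were the 2 mice farthest from the median of Cpa3, and among the other 10 mice r was 0.85 (rho = 0.90, permutation p = 0.00267 and 0.00083, adjusted 0.0187 and 0.00581). The relation thus held without them.

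Cma1 and Cpa3 had r = 0.95 over 12 mice (rho = 0.84, permutation p = 8e-05 and 0.00119, adjusted 0.000233 and 0.00278) and r = 0.83 over 10 (rho = 0.72, permutation p = 0.00541 and 0.0233, adjusted 0.0189 and 0.0543). Tpsb2 and Cpa3 had r = 0.92 over 12 (rho = 0.87, permutation p = 0.0001 and 0.00043, adjusted 0.000233 and 0.00150) and r = 0.71 over 10 (rho = 0.78, permutation p = 0.0209 and 0.00989, adjusted 0.0488 and 0.0346). The CPM ratio of Mcpt4 to Cpa3 ran from 1.85 to 3.87, that of Cma1 from 0.859 to 1.67 and that of Tpsb2 from 1.09 to 4.33, the highest in GFP-2014 each time. These ratios depend on the table. In the authors' normalized table, with its higher Cpa3 values, they ran from 1.60 to 2.71 for Mcpt4, from 0.644 to 1.22 for Cma1 and from 0.875 to 1.95 for Tpsb2, each highest in Notum-2033, and GFP-2014 had 1.61, 0.694 and 1.81. The spread of the Tpsb2 ratio was 3.99-fold in the raw and 2.23-fold in the normalized table.

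The correlations were also taken from the normalized table, a choice made after the data were seen. Over 12 mice r with Cpa3 was 0.94 for Mcpt4, 0.92 for Cma1 and 0.86 for Tpsb2 (permutation p = 4e-05, 0.00012 and 0.00052, adjusted over the 7 relations 0.00028, 0.00042 and 0.00121). Over the 10 mice without GFP-2011 and GFP-2014 it was 0.79, 0.74 and 0.55 (permutation p = 0.00645, 0.0148 and 0.101, adjusted 0.0451, 0.0519 and 0.235). There the relations of Cma1 and Tpsb2 no longer passed adjustment by r. By rho Cma1 passed (rho = 0.78, permutation p = 0.0105, adjusted 0.0366) and Tpsb2 did not (rho = 0.71, permutation p = 0.0264, adjusted 0.0616).

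For Kit and the IgE receptor the relation to Cpa3 passed the test over 12 mice but not over the 10 without GFP-2011 and GFP-2014, where rho was still 0.47 to 0.64. Kit had r = 0.68 over 12 mice (rho = 0.64, permutation p = 0.0158 and 0.0283, adjusted 0.0184 and 0.0331) and r = 0.23 over 10 (rho = 0.47, permutation p = 0.541 and 0.179, adjusted 0.631 and 0.209). Fcer1a went from r = 0.87 (rho = 0.79, permutation p = 0.00105 and 0.0036, adjusted 0.00167 and 0.0063) to r = 0.49 (rho = 0.64, permutation p = 0.148 and 0.0543, adjusted 0.208 and 0.0951). Ms4a2 went from r = 0.80 (rho = 0.76, permutation p = 0.00119 and 0.00571, adjusted 0.00167 and 0.00799) to r = 0.51 (rho = 0.59, permutation p = 0.134 and 0.0807, adjusted 0.208 and 0.113).

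No relation of Hdc to Cpa3 was detected, with r = 0.07 over 12 mice (rho = -0.05, permutation p = 0.825 and 0.887) and r = 0.04 over 10 (rho = -0.13, permutation p = 0.912 and 0.732). The CPM ratio of Hdc to Cpa3 ran from 0.219 in Notum-2041 to 3.13 in GFP-2014, and in the normalized table from 0.194 to 1.53 in the same mice.

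**Figure D4:**
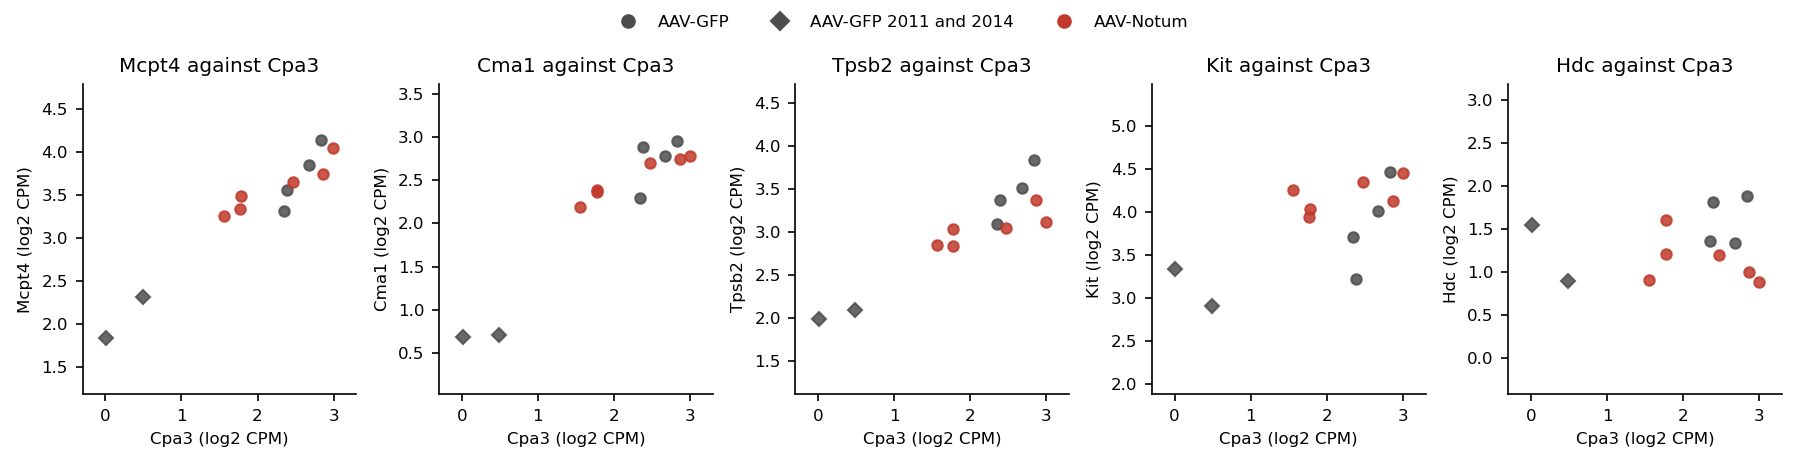
log2 CPM of Mcpt4, Cma1, Tpsb2, Kit and Hdc against log2 CPM of Cpa3, 1 point per mouse; each y axis spans the same number of log2 units. Mcpt4 (r = 0.97), Cma1 (r = 0.95) and Tpsb2 (r = 0.92) follow Cpa3 across both groups. Kit has r = 0.68, and for Hdc no relation was detected (r = 0.07).

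Among the 15584 other genes tested, ranked by r with Cpa3 after each group's mean was removed (12 mice), Mcpt4 was 1st, Cma1 3rd and Tpsb2 5th, whereas Kit was at 2608 and Hdc at 6495. Without GFP-2011 and GFP-2014 the ranks were 12 for Mcpt4, 47 for Cma1, 208 for Tpsb2, 1604 for Kit and 10960 for Hdc. The 10 genes outside the set with the highest r were Mrgprb1, Scara3, Ildr2, Klrb1b, Rph3al, 1810032O08Rik, Gm29439, Ccr10, Sptlc2 and Gm15411, with r from 0.92 to 0.95. Mrgprb1, at 0.95, belongs to the Mas-related receptors, of which Mrgprb2 marks connective tissue mast cells. It had 3 to 37 reads per mouse. Among the 10 mice other than GFP-2011 and GFP-2014 the r of these 10 was between 0.58 and 0.84, with Mrgprb1 at 0.81 and Ccr10, which had 4 to 17 reads, at 0.84.

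Another 80 genes known from mast cell biology were grouped in 8 lists, and 58 passed the filter. None of the 58 had an adjusted p under 0.05 in edgeR, and at an unadjusted p under 0.05, 4 were lower (Alox5, Kitl, Slc22a3 and Ptgs1) and 2 higher (Stat5a and Gzmb). Of all tested genes, 9.54% were lower and 4.64% higher by the same rule. DESeq2 called 3 of the 58 (Alox5, Kitl and Stat5a) at an adjusted p under 0.05, against 2.65% of all genes. At an unadjusted p under 0.05, limma-voom gave 6 lower and 7 higher genes, against 8.52% and 9.38% of all genes, and the authors' normalized table, tested with limma, gave 5 lower and 5 higher, against 8.34% and 7.38%.

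Other granule proteases were scarce. Mcpt1 and Mcpt9 had 0 reads in every mouse and Mcpt2 at most 3, Mcpt1 and Mcpt2 being the proteases of mucosal mast cells. Mcpt8, a protease of basophils, had 1 read in all 12 mice together, and the 8 basophil markers summed to 22.2 to 33.5 CPM in GFP and 25.8 to 32.8 CPM in Notum mice, most of it from Gata2 and Il3ra, which other cells make too. The 1 gene of the 10 that passed the filter was Gzmb, granzyme B, a protease of cytotoxic lymphocytes as well as of mast cells. Gzmb had 1.83 ± 1.10 CPM in GFP and 3.60 ± 0.845 CPM in Notum mice (SD, n = 6 each, log2 fold change 0.98, SE 0.33, edgeR p = 0.0126 and adjusted p = 0.234, exact permutation p = 0.0152). Its 2 lowest mice were GFP-2011 and GFP-2014, and without them the log2 fold change was 0.67 (SE 0.31, edgeR unadjusted p = 0.0517). With the lymphoid mean as a covariate it was 0.53 (SE 0.25, edgeR unadjusted p = 0.0531).

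Of the genes that store amines and build the granule matrix, 8 of 10 passed the filter, 0 had an unadjusted p under 0.05 and the median log2 fold change was -0.07. Slc18a2, which loads histamine and serotonin into granules, did not pass (4 to 11 reads) and had 0.445 ± 0.153 CPM in GFP and 0.413 ± 0.0749 CPM in Notum mice (SD, n = 6 each, exact permutation p = 0.797). Among the 7 histamine receptor and clearance genes, Hrh3 had 0 reads in all mice, 5 passed, and Slc22a3, a transporter that takes up histamine, was lower at an unadjusted p = 0.0320 (87.6 ± 27.2 and 58.8 ± 17.5 CPM, SD, n = 6 each, log2 fold change -0.58, SE 0.24, edgeR adjusted p = 0.312, exact permutation p = 0.0606). With GFP-2011 and GFP-2014 left out that fold change was -0.33 (SE 0.24, edgeR unadjusted p = 0.198), and with the lymphoid mean as a covariate -0.17 (SE 0.18, edgeR unadjusted p = 0.350).

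Of 7 prostaglandin and leukotriene genes, 6 passed the filter, and Alox5 and Ptgs1 had lower values in Notum mice. Alox5 codes for 5-lipoxygenase, which starts leukotriene synthesis in mast cells, macrophages and granulocytes. It ran from 2.81 to 5.21 CPM (median 3.47) in GFP mice and from 1.68 to 2.78 CPM (median 1.86) in Notum mice, so that every Notum mouse was below every GFP mouse, as for 0.693% of all tested genes. The fold change on the log2 scale was -0.84 (SE 0.20, edgeR p = 0.00114 and adjusted p = 0.136, 0.0162 from DESeq2, exact permutation p = 0.00216, the smallest that 6 against 6 mice allow). Without GFP-2011 and GFP-2014 it was -0.74 (SE 0.21), and with the lymphoid mean as a covariate -0.71 (SE 0.22), and over all alternatives its adjusted p ran from 0.0162 to 0.518. Of 10 macrophage markers, 6 had a lower and 4 a higher fold change (median -0.09, summed 520.5 to 1592 CPM in GFP and 927.0 to 1758 CPM in Notum mice). The 2 that were lower at an unadjusted p under 0.05 were Cd163 (log2 fold change -0.94, SE 0.16, edgeR adjusted p = 0.0696), with every Notum mouse below every GFP mouse, and Mrc1 (-0.40, SE 0.16, edgeR adjusted p = 0.312). Of all tested genes, 9.54% were lower at an unadjusted p under 0.05. The part of these markers in the Alox5 values was not tested. Ptgs1, cyclooxygenase 1, had 12.4 ± 1.61 and 10.6 ± 0.733 CPM (SD, n = 6 each, log2 fold change -0.23, SE 0.10, edgeR p = 0.0393 and adjusted p = 0.328, exact permutation p = 0.0238). Its edgeR unadjusted p was above 0.05 with the filter of at least 1 count in all (0.0750) and without GFP-2012 (0.0969, log2 fold change -0.18), GFP-2021 (0.0968), Notum-2032 (0.0677), Notum-2034 (0.0818), Notum-2041 (0.0660) or Notum-2042 (0.0584). Hpgds, a prostaglandin D2 synthase gene, had 6.79 ± 2.54 and 8.98 ± 2.54 CPM (SD, n = 6 each, log2 fold change 0.40, SE 0.28, edgeR adjusted p = 0.478). Its highest GFP value, 9.70 CPM, was that of GFP-2011, which was among the lowest mice for the proteases. The log2 fold change of Hpgds was 0.38 (SE 0.26) without GFP-2011 and GFP-2014 and 0.26 (SE 0.25) without GFP-2014 alone. With the lymphoid mean as a covariate it was 0.22 (SE 0.32).

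**Figure D5:**
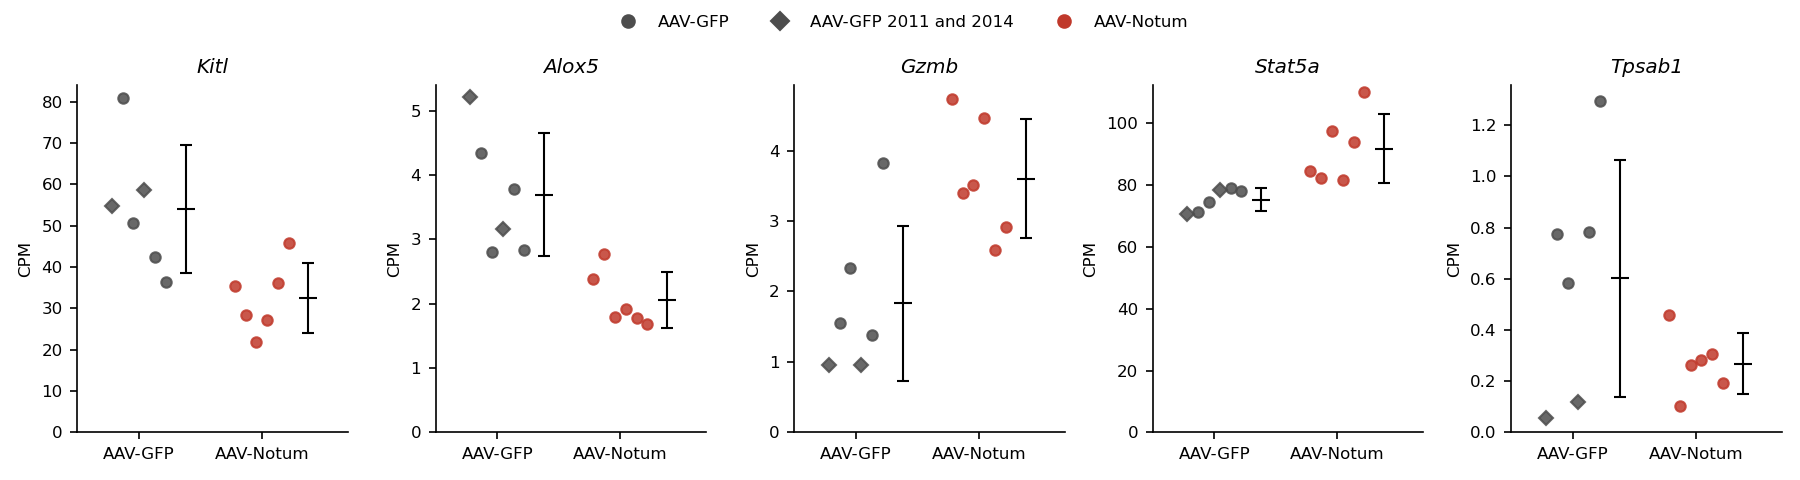
CPM of Kitl, Alox5, Gzmb, Stat5a and Tpsab1, 1 point per mouse, with the group mean and SD beside the points (n = 6 per group; each y axis starts at 0). Every Notum mouse is below every GFP mouse for Alox5 and above for Stat5a; for Tpsab1 the groups overlap, with GFP-2011 and GFP-2014 (diamonds) at 0.0560 and 0.119 CPM.

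Of 9 transcription factor genes, 8 passed the filter. Stat5a, which acts downstream of Kit and of cytokine receptors in many cell types, had 75.3 ± 3.73 CPM in GFP and 91.7 ± 11.2 CPM in Notum mice (SD, n = 6 each). Every Notum mouse was above every GFP mouse, as for 0.398% of all tested genes. edgeR's log2 fold change was 0.28 (SE 0.08, edgeR p = 0.00450 and adjusted p = 0.170, 0.0252 from DESeq2, exact permutation p = 0.00216), and 0.27 (SE 0.10) without GFP-2011 and GFP-2014. Notum-2042 was highest, with 110.2 CPM, and without it the log2 fold change was 0.22 (SE 0.07, edgeR adjusted p = 0.152). Over all alternatives its adjusted p ran from 0.0252 to 0.568.

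The factors named for mast cells did not pass the test. Gata2 had 11.0 ± 1.18 and 9.17 ± 1.92 CPM (SD, n = 6 each, log2 fold change -0.27, SE 0.14, edgeR adjusted p = 0.392), and Mitf 18.8 ± 7.76 and 14.5 ± 4.07 CPM (SD, n = 6 each, log2 fold change -0.37, SE 0.25, edgeR adjusted p = 0.469). The highest Mitf values were 33.9 CPM in GFP-2012 and 22.1 CPM in Notum-2042, and without GFP-2012 the log2 fold change was -0.12 (SE 0.19), with the lymphoid mean as a covariate -0.15 (SE 0.26). Gata1 did not pass the filter, with 0 to 19 reads and 0 in GFP-2014 (0.335 ± 0.335 and 0.592 ± 0.280 CPM, SD, n = 6 each, exact permutation p = 0.121). Its difference of mean log2 CPM was 0.94, and 0.29 without GFP-2011 and GFP-2014 (exact permutation p = 0.557).

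Mrgprb2, the receptor through which basic peptides activate connective tissue mast cells, had 0 to 10 reads (0.245 ± 0.163 and 0.252 ± 0.176 CPM, SD, n = 6 each, exact permutation p = 0.957). Of 12 surface receptor genes, 9 passed the filter, 7 with a higher and 2 with a lower fold change, 0 of them at an unadjusted p under 0.05 (median 0.20). This direction turned without GFP-2011 and GFP-2014, to 6 lower and 3 higher (median -0.11), and with the lymphoid mean as a covariate, to 8 lower and 1 higher (median -0.25). Among 11 growth factor and alarmin genes, 7 passed, with a median of -0.15 and Kitl as the 1 at an unadjusted p under 0.05. Il3 and Il9 had 0 reads in every mouse.

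All 14 genes of IgE receptor and Kit signaling passed the filter, and 12 had a higher fold change in Notum mice, with a median of 0.73, but 0 had an unadjusted p under 0.05. These kinases and adaptors are shared with lymphocytes and macrophages. The 15 lymphoid markers, all of them with a higher fold change, had a median of 1.03 and 0 of 15 at an unadjusted p under 0.05. Without GFP-2011 and GFP-2014 the median of the 14 genes was 0.23 and that of the lymphoid markers 0.46. With the lymphoid mean as a covariate the median of the 14 genes was -0.07, with 10 lower and 4 higher.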

How the data were processed

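iWAT RNA of 12 mice, 6 AAV-GFP and 6 AAV-Notum, was compared. The authors prepared Illumina TruSeq libraries, sequenced single-end reads and mapped them to mm10 with STAR 2.3.1; the program and annotation behind the gene counts are not given in the sources used here. The deposited raw counts per gene are not normalized and were the main data. The second deposited table holds log2 values, log2 of size-factor scaled counts plus 1, and served as an alternative. Reads behind it were estimated: its values were scaled back with 1 factor per mouse, the median ratio of raw counts to normalized values. Groups came from the sample titles. Each library was 1 mouse.

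Genes with low counts were dropped by filterByExpr (its minimum count 10 and minimum total 15), and the rest TMM-normalized and tested with edgeR 4.0.16 in R 4.3.3 (glmQLFit, two-sided quasi-likelihood test, group only), with Benjamini-Hochberg adjustment over 15585 genes and a threshold of 0.05. CPM are scaled to TMM library sizes, with a prior count of 2 before the log2. For single genes, mean log2 CPM was tested by exact permutation, two-sided, with all 924 ways to group the mice enumerated. Correlations used 100000 permutations. Total counts were 14711113 to 21618860 per mouse, so that genes with few reads carry more counting error. Positions are those of GENCODE vM21 (GRCm38). Fits were tested on simulated counts.

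The genes and lists were chosen with earlier results of these data known. Named were the 8 genes, the related genes at an unadjusted p under 0.05 (at most 6 per list), Tpsab1, Mcpt8, Fcer1g, Kitl, Mrgprb2, Gata1, Gata2, Mitf, Slc18a2 and Hpgds, the 10 genes most like Cpa3, and Notum. Genes with 0 or few reads that are named beside them were picked with those values in view.

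Other settings tried were DESeq2 1.42.0, limma-voom (limma 3.58.1), RLE size factors, filters of at least 1 count in all or 10 counts in every mouse, a robust fit, a prior count of 0.5, the RNA integrity number or the lymphoid mean as a covariate, the normalized table (for the correlations, added after the data were seen), GFP-2011 and GFP-2014 both left out, and each mouse left out in turn. Figures were drawn with matplotlib in Python.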

Additional observations from a re-analysis of the deposited data

Results flagged for a closer look

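Ms4a2 in mouse Notum-2032 stood away from the other Notum mice: it had 0.524 CPM, against 0.199 to 0.308 CPM in the other 5, a gap of 0.665 of the range of the group. This rests on 10 reads in that mouse, and 20 groups of 6 mice were looked at, of which chance would give about 1 such case.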

How the results depend on the processing

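No adjusted p of the 8 genes was under 0.05 in the alternatives that gave one, each mouse left out included (range of that count 0 to 0), though Fcer1a had one in only 2 alternatives and Ms4a2 in 1. Few reads limit Ms4a2 (54 in all mice). Mice GFP-2011 and GFP-2014, left out together, reversed the log2 fold change of Cpa3 to -0.23, of Mcpt4 to -0.13 and of Cma1 to -0.21, and the difference of mean log2 CPM of Cpa3 to -0.32, of Mcpt4 to -0.13, of Cma1 to -0.20 and of Tpsb2 to -0.41; that of Kit, 0.35, no longer passed and that of Hdc, -0.46, did. The count of the 8 genes at an unadjusted p under 0.05 went from 1 to 2. As these mice were the lowest of all for Cpa3, Mcpt4, Cma1 and Tpsb2, leaving them out lowers those estimates by construction. The lymphoid mean was lowest in the same mice, so that covariate is not an independent setting. The lymphoid covariate reversed Cpa3 to -0.43, Mcpt4 to -0.25 and Cma1 to -0.33 and moved Tpsb2 from -0.08 to -0.54, the 1 gene then at an unadjusted p under 0.05 in place of Kit, and the RNA integrity covariate Cpa3 to -0.091 and Cma1 to -0.0073, with Hdc as the 1 gene at an unadjusted p under 0.05 in place of Kit. The normalized table, added for the correlations with Cpa3 after the data were seen, kept all 7 on their side of the threshold over 12 mice. Over the 10 mice without GFP-2011 and GFP-2014, Cma1 and Tpsb2 no longer passed adjustment by r in that table. With limma-voom the log2 fold change was 0.47 for Cpa3, 0.42 for Mcpt4 and 0.49 for Cma1. With the normalized table it was 0.39, 0.43 and 0.49. The estimate of Tpsb2 was 0.062 with limma-voom and 0.066 with the normalized table. The unadjusted count of the 8 genes was 0 with RLE size factors and with at least 10 counts in every mouse. Among the other 58 related genes, DESeq2 gave 3 adjusted calls, and the higher genes at an unadjusted p under 0.05 numbered 7 with limma-voom (9.38% of all genes), 5 with the normalized table (7.38%), 1 with the lymphoid covariate (4.19%) and 1 without GFP-2011 and GFP-2014 (2.16%), against 2 (4.64%). Over all genes edgeR called 8 and DESeq2 436, and edgeR 1 without GFP-2011 and GFP-2014. The cause of these changes was not tested.

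When single mice were left out, the log2 fold change ran from 0.016 to 0.43 for Cpa3, from 0.060 to 0.46 for Mcpt4 and from 0.034 to 0.39 for Cma1, lowest without GFP-2014 each time, with 0.039, 0.095 and 0.035 without GFP-2011. Tpsb2's log2 fold change ran from -0.24 to 0.11 (above 0 without GFP-2021 or GFP-2022) and its difference of mean log2 CPM from -0.14 to 0.23 (below 0 without GFP-2011, GFP-2014 or Notum-2032). The difference of Kit ran from 0.45 to 0.76, with an exact permutation p of 0.00433 to 0.0866 that was above 0.05 without GFP-2011, GFP-2012, GFP-2013 or GFP-2014 or Notum-2031, Notum-2032, Notum-2033, Notum-2034 or Notum-2041. That of Fcer1a ran from 0.68 to 1.25 and passed without GFP-2021, that of Ms4a2 from 0.23 to 0.65 and passed without GFP-2022, and that of Hdc from -0.45 to -0.26 and passed without GFP-2011 or Notum-2033. The count of the 8 genes at an unadjusted p under 0.05 ran from 0 to 1, being 0 without GFP-2012, GFP-2013 or GFP-2014 or Notum-2031, Notum-2032, Notum-2034 or Notum-2041. Among the related genes, adjusted calls ran from 0 to 1 (Gzmb without GFP-2022), lower genes from 2 to 7 and higher genes from 2 to 6, and calls over all genes from 1 to 158 (158 without GFP-2022). The r of Hdc with Cpa3 ran from -0.14 to 0.30. That of Kit ran from 0.54 to 0.81 (permutation p = 0.0045 to 0.0905) and that of Ms4a2 from 0.60 to 0.85 (permutation p = 0.00055 to 0.0510). The relations of Kit and Ms4a2 to Cpa3 could thus be lost with 1 mouse left out. Mcpt4, Cma1, Tpsb2 and Fcer1a kept a permutation p of at most 0.0075. No paired analysis was possible because the mouse numbers are not shared between the groups.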
